A study of Mus musculus with 6 samples.

Results

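The growth hormone and insulin-like growth factor (IGF) axis of the liver was followed through 10 genes in male mice labelled Sec15 KO and in wild-type (WT) mice. The genes were the receptors Ghr and Prlr, the hormone Igf1, its serum partner Igfals, the binding proteins Igfbp1, Igfbp2, Igfbp3 and Igfbp4, and the repressors Cux2 and Bcl6. Every probe whose transcript accession maps to 1 of these symbols was taken, and each was kept as a separate measurement. That gave 16 of the 39429 probes on the array, and all 16 passed the filter, a signal that exceeded background clearly (the scanner's flag for well above background) on 3 or more of the 6 arrays. Total RNA from whole liver of untreated 6-week-old males was hybridised to 1-colour (Cy3) Agilent oligonucleotide arrays, with 3 WT arrays and 3 Sec15 KO arrays, named WT 1 to 3 and KO 1 to 3 here. Sec15 belongs to the exocyst, a protein complex that docks vesicles at the cell surface. The labels give neither the strain, the allele and the Sec15 gene concerned nor the cells that lack it. They number the samples as replicates but say nothing of separate animals, and p-values therefore reflect only how these samples varied, some of which may be technical. Levels are log2 processed signal, with the 75th percentile of its array subtracted, so a level of 0 is the signal that 75% of probes lie below. A difference is KO minus WT on this log2 scale, and levels of different probes are not compared because each probe has its own binding strength.

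Pituitary growth hormone acts on the liver through the receptor Ghr, the kinase Jak2 and the transcription factors Stat5a and Stat5b, which switch on Igf1 and Igfals. Most circulating IGF-I is made by the liver and travels bound to an IGF-binding protein, chiefly IGFBP-3 with the acid-labile subunit that Igfals encodes. In rodents the hormone is released in pulses in males and nearly continuously in females, and STAT5 activity that follows these patterns sets the sex difference of many liver genes. Cux2 is a female-specific liver repressor of male-biased genes. Bcl6 is a male-biased repressor that binds DNA sites overlapping those of STAT5 and is itself held down by growth hormone.

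Across the 27057 probes that passed the filter, limma called 7740 at an adjusted p under 0.05, which is 28.6%. Of these, 4595 (17.0%) were higher and 3145 (11.6%) lower in KO, so that 59.4% of calls were higher. That share was 70.1% with median centring, which moved the median difference of all probes from 0.08 to 0.19, and 47.8% after cyclic loess, which moved it to -0.00. The median difference ran from -0.26 in the dimmest 10% of probes to 0.29 in the brightest 10%. By the times in the array headers, WT 1 to 3 and KO 2 were scanned together, and KO 1 and KO 3 at another time. KO 1 and KO 3 were the closest pair of arrays, with an SD of 0.229 for their log2 difference over 23082 probes, against 0.519 between KO 1 and KO 2 and 0.449 between KO 2 and KO 3. Values with scan time as a block therefore rest on KO 2 alone against the WT arrays. The mouse genes of Sec15 are Exoc6 and Exoc6b. Signal well above background was found on 1 WT and 0 KO arrays for the Exoc6 probe A_52_P219661, and on none for the Exoc6b probe A_52_P265544. The other Exoc6b probe, A_55_P1997415, fell by 0.53 (SE 0.15, limma adjusted p = 0.0436). That call was lost without WT 2 (0.108), WT 3 (0.14), KO 1 (0.0796), KO 2 (0.0593) or KO 3 (0.147). It was also lost with median centring (difference -0.41, limma adjusted p = 0.112) and with scan time as a block (difference -0.58). No probe was shown to lie in a deleted part. All 11 hepatocyte markers on the array were well above background on every array, and 5 were called higher and 0 lower (18.6% and 10.7% of genes with a symbol), with a median difference of 0.36 and a mean level between 6.15 and 6.28 in WT and between 6.41 and 6.71 in KO.

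Promoter sequence is shown for the genes whose start regions hold a motif of the pathways above. The sequences and positions are RefSeq's for mouse assembly GRCm38.p6, given 5′ to 3′ on the strand of the gene, and all 10 genes were matched, with 18 annotated starts. In the 250 bases before each start, 4 motifs were searched on both strands: TTCNNNGAA (the STAT site), CAAAACA (the insulin response element that FOXO factors bind), the palindromic glucocorticoid response element and TATAAA (the TATA box). No match overlapped one of another motif. TTCNNNGAA was in 5 of the 18 windows, from 3 genes (Prlr, Igfals and Bcl6), and in 7.02% of all 32851 mouse windows. CAAAACA was in 1 of the 18, that of Igfbp1, and in 5.56% of all. The glucocorticoid response element was in 0 of the 18 and in 0.387% of all. TATAAA was in 3 of the 18, from Ghr, Igfbp4 and Cux2, and in 12.4% of all. A match describes letters only and is no measured site. Capitals mark the match in each sequence, and the Igfbp1 window (chr11:7197537-7197786, plus strand, match 108 to 102 bases before the start) and the Bcl6 window with 3 matches (chr16:23981284-23981533, minus strand, matches beginning 168, 122 and 88 bases before the start) are given whole.
Igfbp1: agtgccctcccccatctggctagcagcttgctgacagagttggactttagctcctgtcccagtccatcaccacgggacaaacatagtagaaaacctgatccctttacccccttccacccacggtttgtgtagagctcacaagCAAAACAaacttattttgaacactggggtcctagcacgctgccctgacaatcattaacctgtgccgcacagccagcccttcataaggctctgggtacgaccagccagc
Bcl6: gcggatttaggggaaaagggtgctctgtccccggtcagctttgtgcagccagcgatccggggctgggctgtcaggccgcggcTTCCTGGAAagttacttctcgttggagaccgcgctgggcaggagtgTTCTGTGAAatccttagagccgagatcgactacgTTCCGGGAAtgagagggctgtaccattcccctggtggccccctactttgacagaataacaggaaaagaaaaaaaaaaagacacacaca
The single matches are shown with 10 bases on each side, for Prlr (chr15:10223786-10223814, 110 to 102 bases before its start), for the pair of Igfals starts (chr17:24877598-24877626, 236 to 228 bases before, and chr17:24878163-24878191, 58 to 50 bases before) and for the other Bcl6 start (chr16:23988952-23988980, minus strand, 118 to 110 bases before).
Prlr: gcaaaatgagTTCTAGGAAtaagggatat
Igfals, start A: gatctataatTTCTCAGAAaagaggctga
Igfals, start B: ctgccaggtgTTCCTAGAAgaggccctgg
Bcl6, other start: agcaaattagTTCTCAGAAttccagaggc

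Of the 16 probes, 7 rose, 1 fell and 8 were not called, against 17.0% higher and 11.6% lower among all probes tested. The called probes belonged to 6 of the 10 genes: Prlr, Igf1, Igfbp1, Igfbp2, Igfbp3 and Cux2, the last of which passed the filter through the KO arrays alone. In 9 probes all 3 KO values lay above all 3 WT values, which was so for 30.6% of all probes, and in 2 they lay below, against 19.6%. The remaining 5 overlapped. An unadjusted p under 0.05 was found for 11 of the 16, against 45.0% of all probes. Fewer arrays moved these counts: 2 of the 16 were higher without WT 2, 1 without WT 3, 4 without KO 1, 9 without KO 2 and 1 without KO 3, and the lower call ended without any of these except KO 2. Counts over all 27057 probes moved alike, with 1340, 204, 1637, 6814 and 486 higher and 1178, 151, 1327, 5793 and 513 lower in the same order. With scan time as a block 4 of the 16 were higher and 0 lower, and 1312 and 1214 of all probes. The Ghr probes, Igfbp1, Igfbp2 A_66_P135391 and all Igf1 probes except A_55_P2031636 lay in the brightest 10% of kept probes. The median difference there was 0.29. Prlr A_66_P139387, Igfbp2 A_55_P2056729 and Igfbp4 lay in the next 10%, with a median of 0.24. The median was 0.21 in the 10% that held Igf1 A_55_P2031636 and Bcl6. It was 0.14 in that of Igfbp3 and Prlr A_52_P458279, and 0.01 in that of Igfals.

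**Figure D1:**
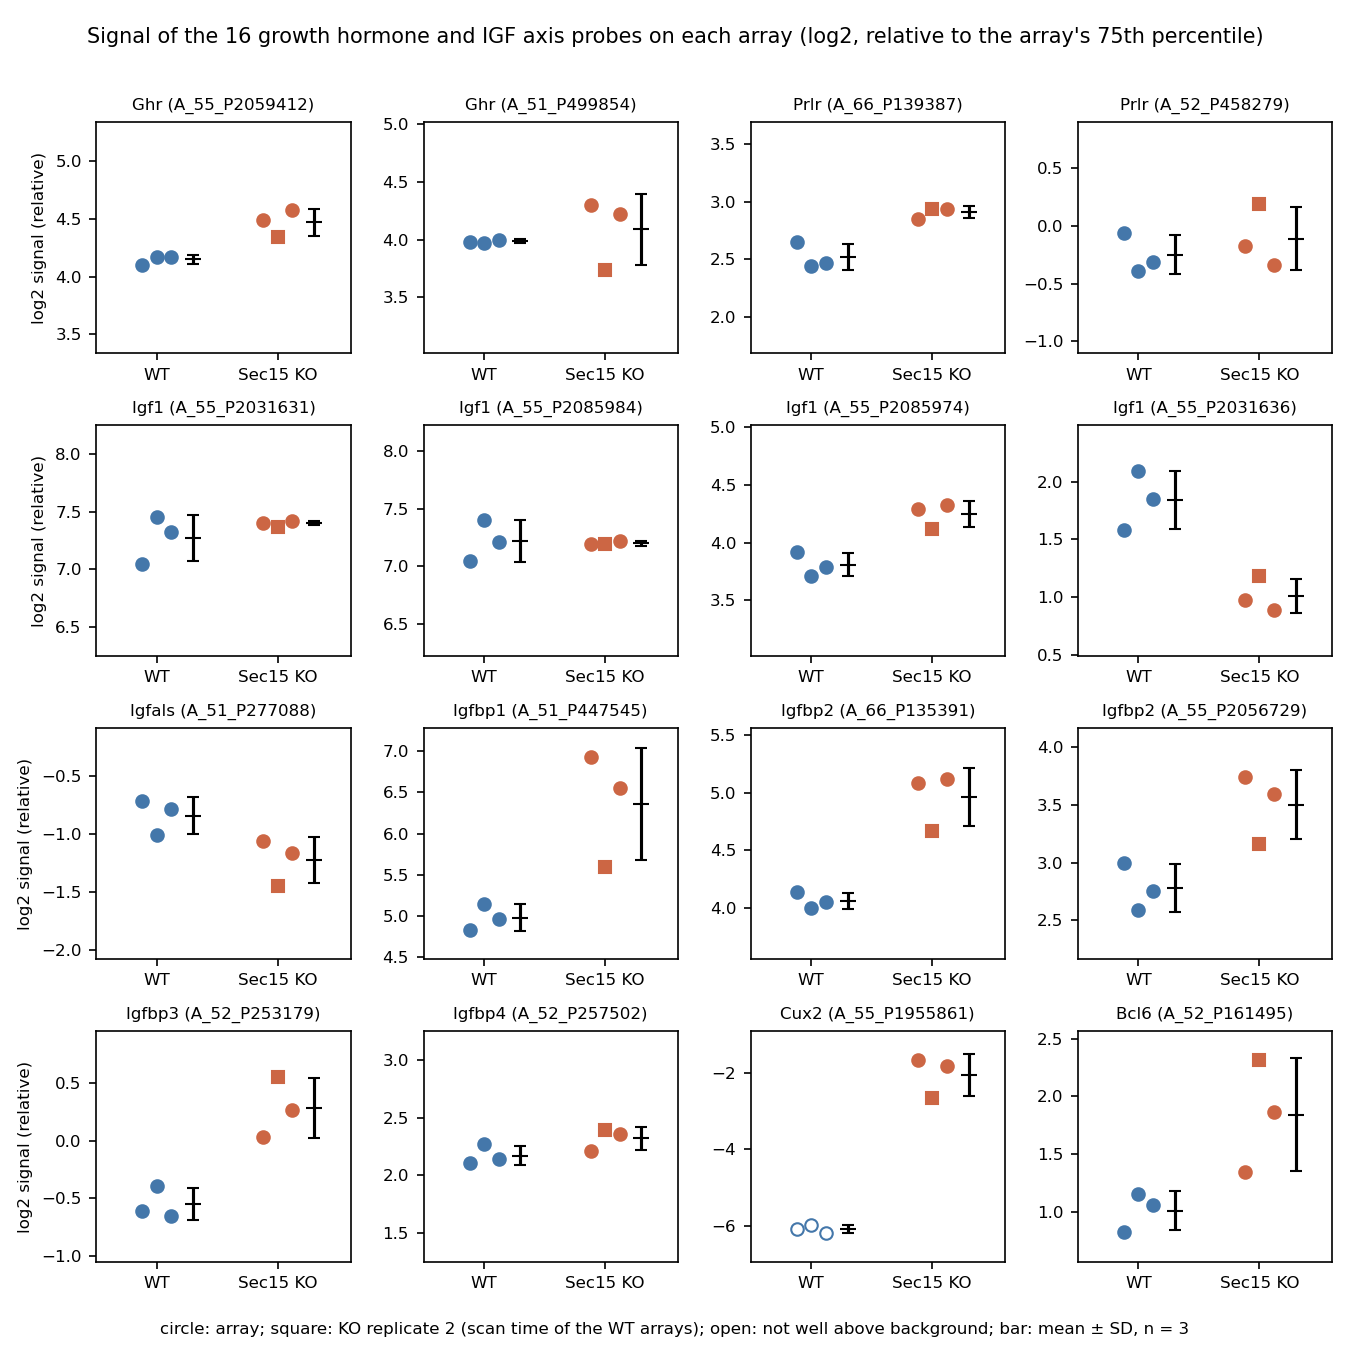
Level of each of the 16 probes on each array, as log2 signal relative to the array's 75th percentile, with WT on the left and Sec15 KO on the right of each panel, the bar giving mean ± SD (n = 3) and a square marking KO 2, scanned with the WT arrays. Cux2 was not well above background on the 3 WT arrays (open circles, -6.19 to -5.99) and lay between -2.67 and -1.66 in KO, while the brightest Igf1 probes overlapped between the groups.

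The receptors showed small differences. Ghr, the growth hormone receptor, was read by a probe to each of 2 RefSeq transcripts. Probe A_55_P2059412 gave 4.10, 4.17 and 4.17 in WT 1 to 3 and 4.49, 4.34 and 4.58 in KO 1 to 3. Every KO value was above every WT value, and the difference was 0.32 (95% interval 0.07 to 0.57), which did not pass the threshold (limma adjusted p = 0.0625). It did pass in 4 of the 19 alternatives, among them the fit without KO 2 (0.02). After cyclic loess the difference was 0.04, close to the median of all probes. Probe A_51_P499854 gave 3.98, 3.97 and 4.00 in WT and 4.30, 3.74 and 4.22 in KO. KO 2 was below the WT arrays and KO 1 and KO 3 above them, so the groups overlapped, with a difference of 0.10 (95% interval -0.31 to 0.51, limma adjusted p = 0.655). Without KO 2 this probe too was called higher (0.0426), and with scan time as a block its difference was -0.25.

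Prlr, the prolactin receptor, sits on the same chromosome as Ghr (15) and is a receptor of the same cytokine receptor family. Probe A_66_P139387 gave 2.65, 2.44 and 2.47 in WT and 2.85, 2.94 and 2.94 in KO. The KO values were all higher, and the level rose 1.31-fold, by 0.39 on the log2 scale (SE 0.10, 95% interval 0.14 to 0.64, limma adjusted p = 0.0366). This call was lost without WT 2 (0.108), WT 3 (0.15), KO 1 (0.0788) or KO 3 (0.137), and the difference was 0.14 after cyclic loess (0.335), 0.25 with normexp (0.0911), and 0.42 with scan time as a block (0.0987). The dimmer Prlr probe, A_52_P458279, gave -0.06, -0.39 and -0.31 in WT and -0.17, 0.19 and -0.34 in KO. These ranges overlapped, with a difference of 0.14 (95% interval -0.28 to 0.56, limma adjusted p = 0.537). The gap between the Prlr probes did not differ between the groups beyond the spread (change 0.25, exact two-sided permutation p = 0.3), where 0.1 is the smallest p that 3 against 3 arrays allow.

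Igf1, the hormone that carries much of the growth effect of growth hormone, was read by 4 probes to the same transcript accession, and these did not move together. Probe A_55_P2031631 gave 7.05, 7.45 and 7.32 in WT and 7.40, 7.37 and 7.42 in KO, and A_55_P2085984 gave 7.05, 7.40 and 7.21 in WT and 7.19, 7.19 and 7.22 in KO. For both, the narrow KO range lay inside the WT range. The differences were 0.13 (95% interval -0.18 to 0.43, limma adjusted p = 0.463) and -0.02 (-0.31 to 0.27, 0.894). These intervals reach up to 0.43 and down to -0.31 under this scaling, and after cyclic loess the differences were -0.17 and -0.32. The deposited intensities of these probes, between 35800 and 48700, showed no saturated spot.

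The remaining Igf1 probes moved in opposite directions. Probe A_55_P2085974 gave 3.92, 3.71 and 3.79 in WT and 4.29, 4.12 and 4.33 in KO. Its KO values were all higher, and it rose 1.36-fold, by 0.44 (SE 0.11, 95% interval 0.17 to 0.71, limma adjusted p = 0.0328). The call was lost without WT 2 (0.0998), WT 3 (0.129), KO 1 (0.0945) or KO 3 (0.131), and the difference was 0.17 after cyclic loess (0.216), 0.19 with quantile normalisation (0.208), 0.08 with normexp (0.503) and 0.31 with scan time as a block (0.152). Probe A_55_P2031636 gave 1.58, 2.09 and 1.85 in WT and 0.97, 1.18 and 0.89 in KO. Its KO values were all lower, and it fell by 0.83 on the log2 scale (SE 0.16, 95% interval -1.22 to -0.44, limma adjusted p = 0.0182). That call was lost without WT 2 (0.0543), WT 3 (0.0821), KO 1 (0.06) or KO 3 (0.0793) and with scan time as a block (difference -0.66, adjusted p = 0.102). After cyclic loess it was -1.02.

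The split between Igf1 probes was measured within each array, where the array's scaling cancels. A_55_P2031631 exceeded A_55_P2031636 by 5.43 ± 0.06 on the WT arrays and by 6.38 ± 0.17 on the KO arrays (mean ± SD over 3 arrays), a change of 0.95 in that gap with no overlap between the groups. The gap from A_55_P2085984 to A_55_P2031636 changed by 0.81 and that from A_55_P2085974 by 1.27, again with no overlap. For each of these 3 pairs the exact two-sided permutation p was 0.1, the smallest possible, and 0.18 adjusted over the 9 probe pairs compared. The same held, with no overlap, for A_55_P2031631 against A_55_P2085984 (change 0.15) and for A_55_P2085984 against A_55_P2085974 (-0.46). Non-overlap was thus not particular to A_55_P2031636. Only the gap from A_55_P2031631 to A_55_P2085974 overlapped (-0.31). RefSeq lists 1 start for Igf1, and the position of each probe on the transcript was not analysed here.

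**Figure D2:**
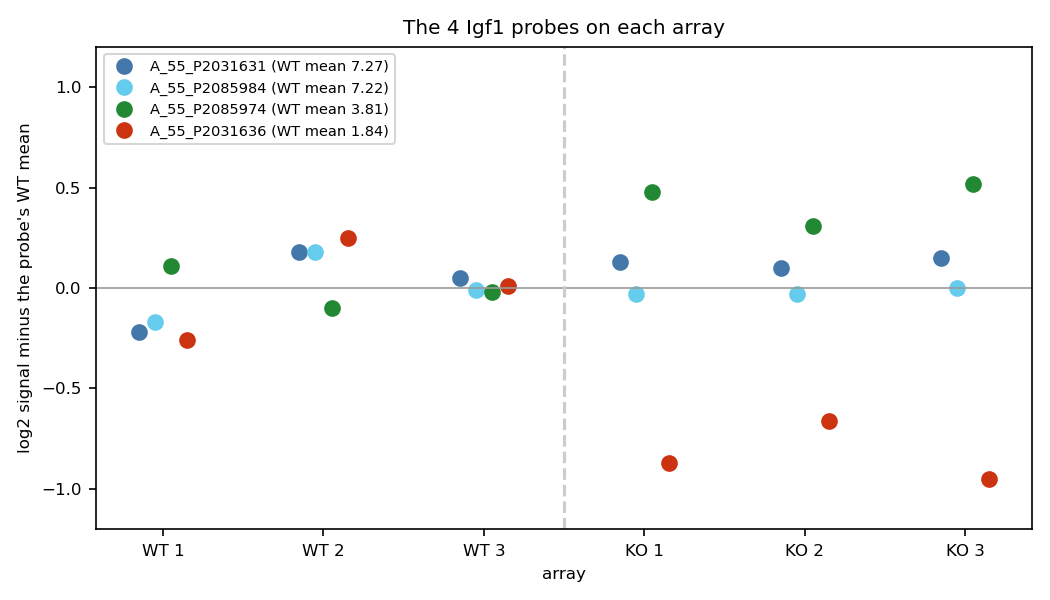
Level of the 4 Igf1 probes on each array minus the same probe's WT mean, on the log2 scale, with 1 point per probe and array and the dashed line separating WT from Sec15 KO. On the KO arrays A_55_P2085974 lies above its WT mean and A_55_P2031636 below it, and the other probes stay within the range of their WT values.

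Igfals encodes the acid-labile subunit, which holds IGF-I and IGFBP-3 or IGFBP-5 in a large serum complex. Its probe gave -0.71, -1.01 and -0.78 in WT and -1.06, -1.45 and -1.16 in KO. All KO values were lower, with KO 2 the lowest and KO 1 only just under WT 2. The difference of -0.39 (SE 0.15, 95% interval -0.75 to -0.03) did not pass the threshold (limma adjusted p = 0.0942). It was -0.42 after cyclic loess and -0.62 with scan time as a block.

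Among the binding proteins, 4 of 5 probes rose and Igfbp4 was not called. Igfbp1, which hepatocytes make when insulin is low and which binds IGF-I for short periods, gave 4.83, 5.15 and 4.97 in WT and 6.93, 5.60 and 6.55 in KO. The groups did not overlap, and KO 2 lay closest to WT. The level rose 2.60-fold, by 1.38 (SE 0.34, 95% interval 0.55 to 2.21, limma adjusted p = 0.0323), from a difference of 1.76 for KO 1 and KO 3 and of 0.62 for KO 2, which is also the value with scan time as a block (adjusted p = 0.11). The call was lost without WT 1 (0.0746), WT 2 (0.0821), WT 3 (0.108), KO 1 (0.0759) or KO 3 (0.112). It was also lost after cyclic loess, where the difference was 1.09 (0.0556), and it held in 7 of the 19 alternatives. Bulk tissue was measured, so here and below a change in the number of cells of a type and a change in RNA per cell cannot be told apart. This is the gene whose start region holds CAAAACA.

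Igfbp2, a binding protein of plasma that is low under strong growth hormone action, was read by 2 probes. A_66_P135391 gave 4.14, 4.00 and 4.05 in WT and 5.08, 4.67 and 5.12 in KO, and A_55_P2056729 gave 3.00, 2.59 and 2.75 in WT and 3.74, 3.16 and 3.59 in KO. Neither overlapped, and KO 2 was the lowest KO array for both. A_66_P135391 rose 1.86-fold, by 0.90 (SE 0.15, 95% interval 0.53 to 1.26, limma adjusted p = 0.0131), and A_55_P2056729 rose 1.64-fold, by 0.72 (SE 0.19, 95% interval 0.25 to 1.18, limma adjusted p = 0.0386). The first kept its call with scan time as a block (difference 0.60, adjusted p = 0.0416) and with normexp (0.54, 0.0091) and lost it without WT 2 (0.0506), WT 3 (0.0678) or KO 3 (0.0613). The other lost it with scan time as a block (0.38, adjusted p = 0.22), after cyclic loess (0.45, 0.0904) and without WT 2 (0.115), WT 3 (0.127), KO 1 (0.105) or KO 3 (0.131).

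Igfbp3, the main carrier of serum IGF-I, is made in the liver largely by cells other than hepatocytes, in particular sinusoidal endothelial and Kupffer cells. Its probe gave -0.61, -0.39 and -0.65 in WT and 0.03, 0.55 and 0.27 in KO. All KO values were higher and KO 2 was the highest. The level rose 1.78-fold, by 0.83 (SE 0.16, 95% interval 0.44 to 1.23, limma adjusted p = 0.0182), and the difference was 0.74 after cyclic loess and 1.10 with scan time as a block (adjusted p = 0.0313). The call was lost without WT 3 (0.0855) or KO 3 (0.075). Of 10 sinusoidal endothelial markers, 5 were called higher and 1 lower, where 18.6% of all genes with a symbol were higher and 10.7% lower, with a mean level between 0.85 and 0.98 in WT and between 1.20 and 1.31 in KO. Of 9 Kupffer cell markers 3 were called higher and 0 lower, with a mean level between 0.72 and 0.95 in WT and between 1.09 and 1.52 in KO, and all of both lists were well above background on every array. Their part in the Igfbp3 result was not tested.

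Igfbp1 and Igfbp3 are neighbours on chromosome 11 in the RefSeq gene order, as Igfbp2 and Igfbp5 are on chromosome 1. Igfbp1 was highest in KO 1 and Igfbp3 in KO 2, so the neighbours did not follow the same order across the KO arrays. Igfbp5, a binding protein kept in tissue matrix and part of the list of other IGF genes below, lay between -1.63 and -0.86 in WT and between -1.98 and -1.61 in KO. It overlapped between groups and was not called (difference -0.62, limma adjusted p = 0.0861). Igfbp5 was called lower without WT 1 (-0.85, 0.0232), with WT 1 and WT 2 averaged (-0.66, 0.0408) and with array weights (-0.71, 0.00289). Igfbp4, an abundant liver binding protein that restrains IGF action, gave 2.11, 2.27 and 2.14 in WT and 2.21, 2.39 and 2.36 in KO. Those ranges overlapped, and the difference of 0.15 (95% interval -0.10 to 0.40) was not called (limma adjusted p = 0.302) and was -0.09 after cyclic loess.

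Of the repressors, Cux2 was called higher and Bcl6 was not called. Cux2 had deposited intensities of 4.63, 4.39 and 3.52 in WT 1 to 3 and 88.4, 41.7 and 68.5 in KO 1 to 3. It was well above background on 0 of 3 WT and on all 3 KO arrays. Since the WT values are not measured levels, the fold was set against the lowest signal flagged well above background on each WT array. Against that floor Cux2 was 4.20-fold higher in KO. A higher floor would give a smaller fold, so 4.20 is no strict lower bound. The limma adjusted p of 0.0037 comes from a fit to WT values below background, of a probe that passed the filter through the KO arrays alone, and is given as a description. On the relative scale the KO arrays gave -1.66, -2.67 and -1.81, with KO 2 the lowest. With normexp background correction the fitted difference was 1.08 in place of 4.04, and neither is a measured fold. Cux2 lies among the dimmest 10% of probes kept, whose median difference was -0.26.

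Bcl6 gave 0.82, 1.15 and 1.06 in WT and 1.34, 2.31 and 1.86 in KO. All KO values were higher, with KO 2 the highest, and their SD was 0.49. The difference was 0.82 (SE 0.26, 95% interval 0.20 to 1.45), with a limma adjusted p of 0.0578, above the threshold. It passed in 8 of the 19 alternatives. Among these were median centring (limma adjusted p = 0.0265), normexp (0.0437), the fit without KO 1 (0.0395) and scan time as a block (difference 1.30, adjusted p = 0.0437). Over all 19 alternatives the difference lay between 0.59 and 1.30. In KO 2, Bcl6 was thus farthest from WT among the KO arrays while Cux2 was closest to it. BCL6 acts with corepressors of the Bcor and Ncor families. Bcor had 1.07, 1.63 and 1.31 in WT and 0.17, 0.12 and 0.09 in KO at its brightest probe, which fell by 1.21 (SE 0.16, limma adjusted p = 0.00851). The groups did not overlap, the call was lost without WT 3 (0.0536), and its other probe differed by 0.28 (limma adjusted p = 0.128).

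**Figure D3:**
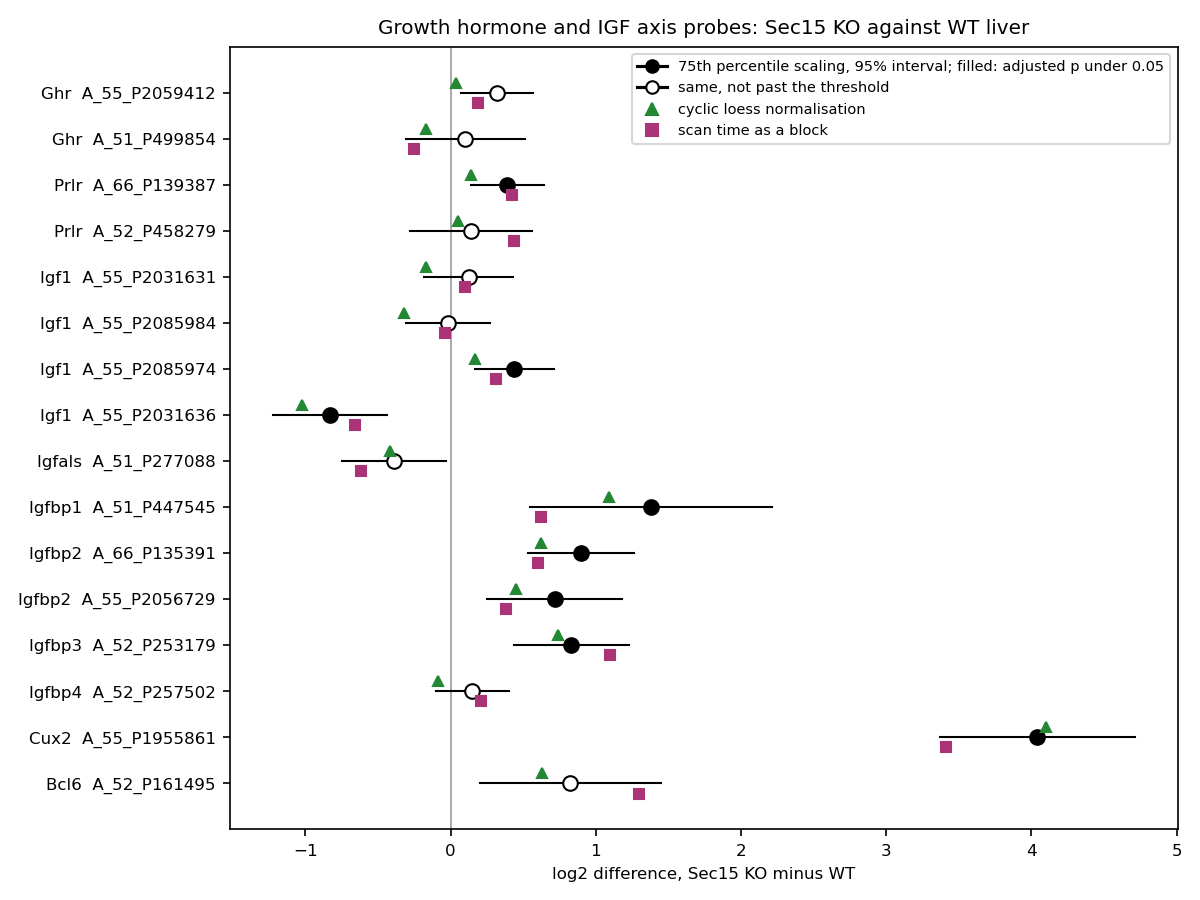
Difference of each probe (Sec15 KO minus WT, log2) with its 95% interval, filled where the limma adjusted p is under 0.05, beside the difference after cyclic loess (triangles) and with scan time as a block (squares). The Cux2 point is the fitted value of a gene not measured in WT and no estimate of its fold, and the Igfbp1 difference falls from 1.38 to 0.62 with the block.

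The other genes of the axis were counted by the brightest kept probe of each gene. Among all 15557 genes with a symbol, 18.6% were higher and 10.7% lower, with a median difference of 0.11. Of 19 genes of growth hormone and prolactin receptor signalling, all were measured, 3 were higher, 4 lower and 12 not called, with a median of -0.02. That median was 0.10 with median centring and -0.14 after cyclic loess. Socs2, a STAT5-induced inhibitor of Ghr signalling, gave 0.77, 1.18 and 1.00 in WT and 1.76, 1.74 and 1.86 in KO. The KO arrays were all higher and close together, and Socs2 rose 1.74-fold, by 0.80 (SE 0.13, limma adjusted p = 0.0125). Its other probes rose by 1.15 (limma adjusted p = 0.00582) and 0.69 (0.031). The call of the first was lost without WT 3 (0.0665) or KO 3 (0.0631) and with scan time as a block (0.0634), where its difference was 0.75.

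Socs3, the inhibitor induced chiefly by STAT3-activating cytokines, moved the other way, with 1.55, 1.09 and 1.33 in WT and 0.07, 0.16 and 0.11 in KO. The groups were well apart, and it fell by 1.21 (SE 0.14, limma adjusted p = 0.00697), a call lost without WT 3 (0.0508). Cish, another STAT5-induced inhibitor, gave 1.84, 3.17 and 2.73 in WT and 1.60, 1.91 and 1.73 in KO, which overlapped, WT 1 being the lowest WT array. Its difference of -0.83 was not called (limma adjusted p = 0.109). It was called lower without WT 1 (-1.20, 0.019), with WT 1 and WT 2 averaged (-0.87, 0.02) and with array weights (-1.01, 0.0033). The kinase Jak2 differed by -0.02 (0.925) and Stat5a by 0.41 (0.0849). Stat5b differed by -0.62 at its brightest probe (0.131), which was called lower without KO 2 (-0.86, 0.0324) and with array weights (-0.79, 0.00359). The other Stat5b probe differed by 0.31 and was called higher (limma adjusted p = 0.0433). Cish, Igfbp5, Jak2, Stat5a and Stat5b are named for their roles, chosen after their values were seen.

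Of the other called signalling genes, Ptpn11, the phosphatase SHP-2 that associates with the receptor, rose by 0.50 (SE 0.09, limma adjusted p = 0.0143). Sos1, an exchange factor that activates Ras, rose by 0.81 (SE 0.18, 0.026). Irs4, an insulin receptor substrate, fell by 1.31 (SE 0.28, 0.0233), and the adaptor Shc1 fell by 0.48 (SE 0.12, 0.0328). Without WT 3 and without KO 3 these adjusted p-values were 0.082 and 0.0724 for Ptpn11, 0.0927 and 0.0998 for Sos1, 0.0931 and 0.087 for Irs4, and 0.122 and 0.087 for Shc1. Without WT 2 and without KO 1 they were 0.0553 and 0.0717 for Sos1, 0.0641 and 0.0738 for Irs4, and 0.0942 and 0.0677 for Shc1, which was also lost without WT 1 (0.063). The Ptpn11 difference was 0.29 after cyclic loess (not called, 0.0805) and 0.33 with normexp, and the Sos1 difference 0.40 with normexp.

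Of 13 other IGF genes, 10 were measured, 2 were higher, 0 lower and 8 not called, with a median of -0.43 (-0.07 with scan time as a block). Stc1, an inhibitor of the proteases that cleave IGF-binding proteins, gave -0.87, -1.62 and -1.14 in WT and 0.95, -0.05 and 0.81 in KO. The KO values were all higher, KO 2 being closest to WT, and Stc1 rose 3.44-fold, by 1.78 (SE 0.32, limma adjusted p = 0.0155), or by 1.16 with scan time as a block (not called, 0.069). Igfbp7, a secreted protein that binds IGFs weakly, rose 1.44-fold, by 0.52 (SE 0.11, 0.0216), with 0.27 after cyclic loess (not called, 0.0818) and 0.32 with normexp. Without WT 2, WT 3, KO 1 and KO 3 in turn the adjusted p was 0.0536, 0.0678, 0.051 and 0.0677 for Stc1, and 0.0701, 0.102, 0.0677 and 0.0941 for Igfbp7. Igf2, the fetal IGF ligand, differed by -0.55 (0.228). Igf1r, the receptor of IGF-I, Igfbpl1 and Stc2 did not pass the filter; Igf1r is known to be scarce in hepatocytes. These 4 genes were singled out after their values were seen.

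Of 19 regulators of growth hormone-driven liver genes, 17 were measured, 5 were higher, 1 lower and 11 not called, with a median of 0.14 (-0.07 after cyclic loess and -0.01 with scan time as a block). Tox, a nuclear protein with a female-biased level in mouse liver, gave -2.69, -3.39 and -3.30 in WT and -1.09, -1.30 and -1.10 in KO. It rose 3.90-fold, by 1.96 (SE 0.21, limma adjusted p = 0.00649), with no overlap between the groups, and by 1.09 with normexp. Cebpb, a transcription factor of the acute phase and of fasting, rose by 0.69 (SE 0.10, 0.00951), and by 0.39 with quantile normalisation and 0.40 after cyclic loess. Hnf4a, a master regulator of hepatocyte genes, rose by 0.61 (SE 0.12, 0.0197), a call lost with quantile normalisation (0.35, adjusted p = 0.06), after cyclic loess (0.32, 0.0629), with normexp (0.24, 0.0588) and with scan time as a block (0.45, 0.0938). The Cebpb call was lost without WT 3 (0.0603) or KO 3 (0.0531), and that of Hnf4a without WT 2 (0.0518), WT 3 (0.0892), KO 1 (0.0627) or KO 3 (0.0851). The regulator that fell is Bcor, given above.

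The sex-biased genes that growth hormone patterns control moved in opposite directions by list. Like the other lists here, these were chosen with earlier results of these data known. Their counts are therefore a description and no independent test. Of 22 male-biased genes, 21 were on the array and 20 measured (all except Obp2a), of which 0 were higher and 11 lower, with a median of -0.72. Hsd3b5, a male-specific steroid enzyme, gave 4.41, 4.87 and 4.61 in WT and 3.24, 3.51 and 3.51 in KO. It fell by 1.21 (SE 0.15, limma adjusted p = 0.00829), with no overlap. The male-specific fatty acid hydroxylases Cyp4a12a and Cyp4a12b, close copies whose probes may share signal, lay between 3.97 and 4.14 and between 4.62 and 4.81 in WT, and between 2.39 and 2.53 and between 2.92 and 3.18 in KO. Of 30 female-biased genes, 27 were on the array and 22 measured, of which 16 were higher and 0 lower, with a median of 1.14 (0.66 with normexp). Cyp2a22, Sult2a1, Sult3a1, Hao2 and A1bg did not pass the filter, and Slc22a27, counted among the 16, passed it through the KO arrays alone; these 6 are named for that, after their values were seen. Vldlr, a lipoprotein receptor, gave -2.52, -3.65 and -3.02 in WT and 0.76, 0.37 and 0.66 in KO and rose 12.6-fold, by 3.66 (SE 0.29, limma adjusted p = 0.00503), or by 2.12 with normexp. Cyp2b10, a P450 of drug metabolism, rose from between -1.45 and -1.09 in WT to between 1.97 and 2.93 in KO, and Cyp39a1, an oxysterol hydroxylase, from between 0.82 and 1.56 to between 3.08 and 3.33. Trim24 and Tox are on both the regulator list and the female-biased list.

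The sex-biased counts depended on the arrays more than the medians did. With scan time as a block the male-biased list had a median of -0.74 with 5 lower, and the female-biased list a median of 0.74 with 7 higher. After cyclic loess 14 male-biased genes were lower, and 13 female-biased genes were higher with a median of 1.11. Without WT 2, WT 3, KO 1 and KO 3 in turn, 6, 2, 5 and 3 male-biased genes were lower and 9, 4, 9 and 7 female-biased genes higher, while among all 27057 probes 1178, 151, 1327 and 513 were lower and 1340, 204, 1637 and 486 higher. No male-biased gene was called higher as reported, but 2 were with array weights and 1 with WT 1 and WT 2 averaged. The Hsd3b5 call was lost without WT 3 (0.0528), while those of Vldlr, Cyp2b10, Cyp39a1, Tox, Cyp4a12a and Cyp4a12b held without each array in turn. All samples were labelled male.

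**Figure D4:**
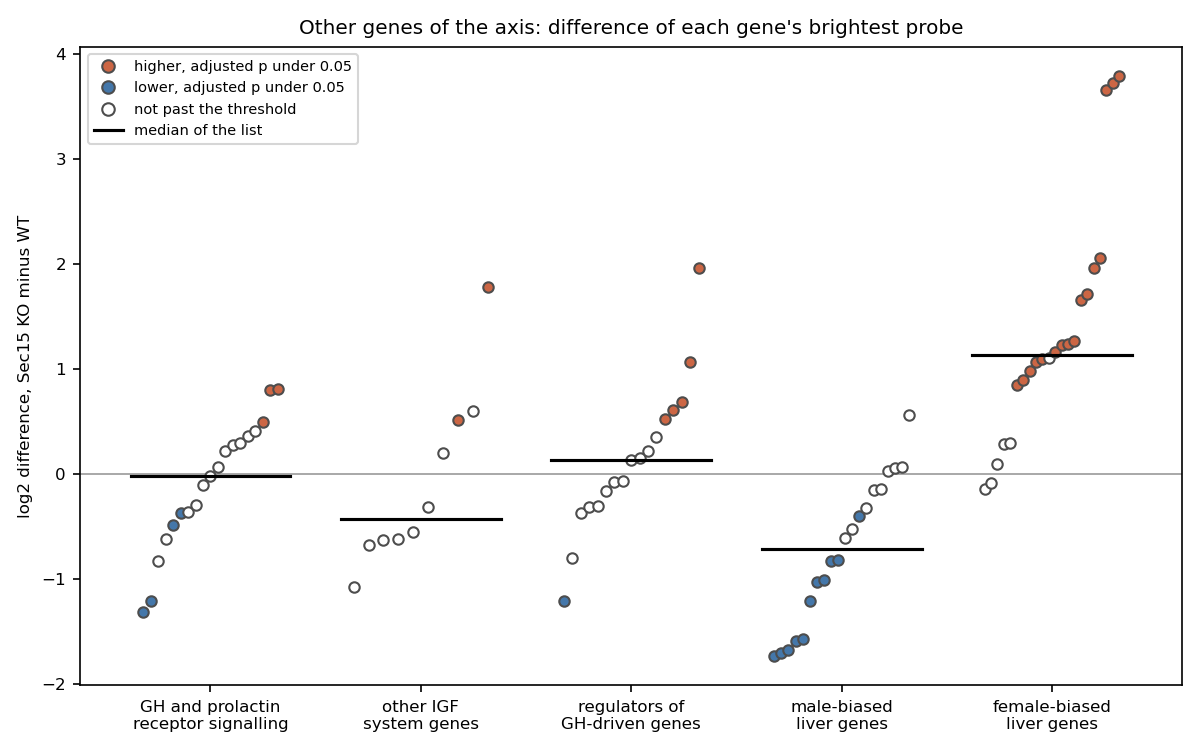
Difference (Sec15 KO minus WT, log2) of each gene's brightest probe in 5 lists of the axis, filled where the limma adjusted p is under 0.05 and with a bar at the list's median. The male-biased genes have a median of -0.72 and the female-biased genes one of 1.14, and the receptor signalling genes have one of -0.02. The lists were chosen with earlier results of these data known.

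Markers of other liver cell types and of other tissues were counted against the same background of 18.6% of genes higher and 10.7% lower. Of 9 erythroid markers 7 were called higher and 0 lower, with a mean level between -0.22 and 0.35 in WT and between 1.95 and 2.10 in KO. Kel, counted among the 7, passed the filter through the KO arrays alone and is named for that, after its values were seen. Its WT values, which enter that mean level, were not well above background. Of 8 exocrine pancreas markers 1 was called higher and 6 lower, with a mean level between -0.50 and -0.05 in WT and between -1.95 and -1.51 in KO, and Cela1, Cela2a and Cela3b were not well above background on any array. Try4 and Cpa1, counted among the 6, were well above background on 1 KO array each, and the uncalled Cpb1 on 2. Their KO values enter that mean level, and they are named for that, after their values were seen. Of 7 stellate cell markers 4 were called higher and 1 lower (mean level 1.18 to 1.26 in WT and 1.34 to 1.41 in KO, with Reln, Des and Hgf not well above background on any array), and of 6 bile duct markers 0 were higher and 2 lower (-1.26 to -0.91 and -1.25 to -0.94). The part of these cells in the results above was not tested.

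The genes whose profile over the 6 arrays was most like that of a gene of the axis were found by Pearson's r among 15547 genes. For Igfbp2 probe A_66_P135391 they were Dedd2 (0.9991), the proteasome subunit Psmc3 (0.9987) and Klhl7 (0.9985), with 1844 genes above 0.95. For Igfbp3 they were Cracdl (0.9989), the chromatin remodelling subunit Smarce1 (0.9969) and Hexim1, an inhibitor of transcription elongation (0.9966), with 382 genes above 0.95. Each r was taken over the same 6 arrays, which differ in genotype and in scan time, so the values describe these arrays and no more. The smaller number for Igfbp3 goes with a profile in which KO 2 lay farthest from WT, where for Igfbp2 it lay closest.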

How the data were processed

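RNA was hybridised 1 array per sample, and each deposited value is the intensity of a spot, read with Agilent Feature Extraction 11.0.1.1 and, per the file headers, background-subtracted but not normalised between arrays. Other deposited columns are flags for outliers, saturation and signal well above background, per the file headers. Outlier spots (178 to 236 per array) were left out, spots of 1 probe averaged and log2 of the deposited intensity taken minus each array's 75th percentile, with no pseudocount. A probe was kept when well above background on at least 3 of 6 arrays, and between 64.8% and 70.3% of probes on an array were. Accessions were matched to RefSeq's gene table of GRCm38.p6, for names and gene order only, and 27234 probes matched 1 symbol and 12195 none. The number of arrays limits the precision.

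Groups came from the labels. The difference between Sec15 KO and WT was fitted with limma 3.58.1 (lmFit, eBayes; R 4.3.3, data.table version 1.17.8, jsonlite 2.0.0) over all kept probes, with Benjamini-Hochberg adjustment at 0.05, and the code was tested on simulated data. Probe pairs were compared by exact permutation. For a gene well above background on no array of a group, the fold was set against the lowest flagged signal. That fold is no strict lower bound. The 19 alternatives were quantile normalisation, median centring, cyclic loess, normexp (offset 50, on the median spot and background signals) with quantile normalisation, 2 other filters, eBayes with trend and robust, array weights, 1 probe per gene, replicate or scan time as a block, the first scan time alone, WT 1 and WT 2 averaged (their deposited names share a number) and each array left out.

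Named are all probes of the 10 genes and of Exoc6 and Exoc6b, from each list of the axis up to 3 genes per direction with the smallest adjusted p among those called, and the 3 genes most like each of Igfbp2 and Igfbp3 (the rule also names Cux2, whose WT values are below background, so its likeness is not reported). The genes and lists were chosen with earlier results of these data known.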

Additional observations from a re-analysis of the deposited data

How the results depend on the processing

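All values come from 6 arrays, 1 KO array shares the scan time of the WT arrays, and the labels' replicate numbers were not taken as pairs. Deviations of same-numbered arrays correlated at 0.18, 0.16 and 0.06, and each WT array correlated best with its own number (3 of 3). With so few arrays these values do not settle whether the numbers mark pairs. With the replicate block, 6 of the 16 probes were higher and 1 lower, and 3431 probes in all were higher and 2696 lower. With scan time as a block, 4 of the 16 were higher and 0 lower, 1312 and 1214 probes in all, and 9 and 9 genes of the 5 other lists (24 higher and 16 lower as reported). On the first scan time alone, with KO 2 assumed to vary like the WT arrays, 0 of the 16, 0 of all probes (7840 at an unadjusted p under 0.05) and 0 list genes passed in either direction by limma. Of the 16, 3 were higher with quantile normalisation, 3 after cyclic loess and 3 with no filter, and in all 2947 probes were higher after cyclic loess and 2932 with no filter. With 1 probe per gene 0 of the 10 genes was lower. Array weights, which gave WT 3 a weight of 12.5 and KO 2 one of 0.135, called 11 higher and 2 lower of the 16, 10938 and 8495 probes in all, and 37 and 33 list genes. Leaving out each array in turn gave between 1 and 9 of the 16 higher and between 0 and 1 lower, between 204 and 6814 probes higher and between 151 and 5793 lower, and between 4 and 30 list genes higher and between 2 and 22 lower. Of these, the lowest counts over all probes came without WT 3 and the highest without KO 2. The probes whose direction turned were all uncalled in that direction: Ghr A_51_P499854 (-0.15 with quantile normalisation, -0.17 after cyclic loess, -0.24 with normexp, -0.25 with scan time as a block and on the first scan time alone, and between -0.01 and 0.28 with each array left out, the lowest without KO 1), Igf1 A_55_P2031631 (-0.04 with quantile normalisation, -0.17 after cyclic loess, -0.04 with normexp), Igf1 A_55_P2085984 (0.10 with median centring, and between -0.11 and 0.07 with each array left out, the highest without WT 2) and Igfbp4 (-0.09 after cyclic loess, -0.04 with normexp). The cause was not tested. The 7 called probes other than Cux2, which was not measured in WT, kept their direction under every alternative in which they were fitted.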
